A study of Rattus norvegicus with 12 samples.

Results

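Complex I (NADH:ubiquinone oxidoreductase) is the entry point for electrons from NADH into the respiratory chain, and most of its subunits are encoded in the nucleus. The genes described here are the rows of the count table named after 37 listed nuclear complex I subunit symbols. Of these symbols 34 were found, and Ndufb2 and Ndufs5 each had a pair of rows, so there were 36 genes of 30560 in all. Ndufa10, Ndufb1 and Ndufb9 were not analysed here. A filter on low counts kept 34 of the 36 genes for testing, and Ndufa1 and the second Ndufs5 row were left out by it.

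All 12 libraries came from hindlimb (gastrocnemius) muscle of 1 wild-type male Wistar Kyoto rat of 14 weeks, homogenised and pooled, with separate aliquots taken for each isolation method. Crude mitochondria (crude_RNase) were pelleted by differential centrifugation, and bead-captured mitochondria (IP_RNase) were pulled out with magnetic beads. Another group was bead-captured and also given proteinase K (IP_RNase_ProK), an enzyme that digests exposed protein, and the last was mitoplasts (mitoplast_RNase), organelles stripped of their outer membrane, made from bead-captured mitochondria. Every group had 3 libraries and every preparation was treated with RNase A, which degrades exposed RNA, so there was no group without RNase. Libraries were made from total RNA after ribosomal RNA depletion, from 6.3 ng of RNA for crude mitochondria and 40 ng for the bead-captured groups and mitoplasts, so the isolation method and the RNA input cannot be told apart. All material came from 1 animal and 1 homogenate, so the errors and tests reflect how much the preparations varied, which may be technical.

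Complex I is L-shaped. Its matrix arm holds the N module, which oxidises NADH through a flavin and iron-sulfur clusters, and the Q module, which passes electrons to ubiquinone. Its membrane arm pumps protons through the mitochondrially encoded ND subunits. The other nuclear subunits, called accessory, surround this core, and many of them are needed for assembly or stability. Their mRNAs are translated on cytosolic ribosomes, some of them close to the outer mitochondrial membrane, and the proteins are imported, so the mRNAs themselves are not matrix transcripts. Skeletal muscle fibres are rich in mitochondria and express these genes strongly.

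The promoters of some members share a short word that the choice of members did not use, shown here because the genes that carry it include Ndufa6, the gene with the lowest fold change. In RefSeq sequences of assembly GRCr8, 33 of the 34 symbols had a window from 250 bases before to 50 bases after the gene start, and 7 spellings of known promoter words were searched there on both strands. The word AAGATGGCG, the core recognised by the zinc finger factor YY1, occurred in 7 of 33 members (21.2%), against 1.73% of all 33469 promoters and 2.07% of the 21851 promoters of coding genes. In all 7 it lay on the strand of the gene, beginning 5 to 27 bases after the start, and 1.06% of coding promoters held it on that strand after the start. The word contains ATG, the letters of a start codon. Whether translation of these genes begins there was not tested, so the word may be part of the coding sequence. Of the 7, Ndufa6, Ndufa9, Ndufb8 and Ndufs7 were among the 16 genes lower in bead-captured than in crude mitochondria, and Ndufa2, Ndufs4 and Ndufs6 were not. That is 4 of 7, beside 16 of all 33 members with a window. Whether the word goes with the fold change was not tested.

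The windows of 6 of these genes are printed 5′ to 3′ on the strand of the gene, with the word in capitals. They lie at chr7:115750283-115750312 (minus strand, Ndufa6), chr4:161374141-161374170 (minus, Ndufa9), chr1:253362896-253362925 (minus, Ndufb8), chr7:10110475-10110504 (minus, Ndufs7), chr2:47794891-47794920 (minus, Ndufs4) and chr1:31797413-31797442 (plus, Ndufs6).
Ndufa6: cttccttagcAAGATGGCGgccgcggccag
Ndufa9: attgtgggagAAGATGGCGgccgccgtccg
Ndufb8: ggagaaggtgAAGATGGCGgcgtcccgggc
Ndufs7: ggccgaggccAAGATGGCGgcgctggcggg
Ndufs4: tgcccacaggAAGATGGCGgcggtctcaat
Ndufs6: ggtcgtcggcAAGATGGCGgcggcgctgac

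The consensus of NRF1, a factor known for driving respiratory chain genes, occurred on either strand in 5 of 33 member promoters (15.2%), against 2.59% of all promoters and 3.4% of coding ones. Ndufa5 and Ndufa12 carried it and were among the 16 lower genes, while Ndufa11, Ndufb4 and Ndufs5 carried it and were not. Ndufa11 at chr9:1637507-1637536 (plus strand) held overlapping copies, Ndufa5 at chr4:53971248-53971277 (minus) a copy on the strand of the gene, and Ndufa12 at chr7:30658194-30658223 (plus) a copy on the opposite strand. Capitals mark the match.
Ndufa11: cctgcgctgTGCGCATGCGCATGCGCAcag
Ndufa5: cgtatgagcTGCGCAGGCGCAaatctctcc
Ndufa12: ctccagctcTGCGCGTGCGCAgagcgacct

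Of the other words searched, the Ets-type word CCGGAAG was in 21.2% of member promoters (8.75% of all, 10.7% of coding ones). Its longer form CCGGAAGT was in 9.09% (3.81% and 4.77%). The GC box GGGCGG was in 42.4% (33.1% and 41.8%), near its share of coding promoters. The CCAAT box, searched as CCAAT, was in 30.3% (37.5% and 38%). AAGATGG, which lies inside the YY1 word, was in 24.2% (7.01% and 7.29%). A match is a description of letters in this window and not a measured binding site.

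Total counts were 6583452 to 7123045 per library in crude mitochondria and 3325430 to 4563254 in the other groups. The median member had 70 to 91.5 raw counts in a crude library and 52 to 79 in the others. For 1115 olfactory receptor genes, which muscle is not known to transcribe, the median raw count was 30 to 34 in crude libraries and 37 to 49 in the others. How much of a member's count is such background was not tested, and the genes differ in length. The median standard error of a member's log2 fold change between bead-captured and crude mitochondria was 0.172. It rests on an estimate of spread shared by the 4 groups, which were not equally spread. Over all genes, chi-square per degree of freedom between replicate libraries was 4.19 to 11.3 in crude and 1.95 to 6.89 in bead-captured mitochondria. It was 1.24 to 1.76 in the proteinase K and 1.29 to 1.83 in the mitoplast group. The errors against crude mitochondria may therefore be too small. Values are CPM, counts scaled to a common library size, on TMM-scaled library sizes, a scaling under which the typical gene does not move between groups: the median over all 26483 tested genes was 0.01 between bead-captured and crude mitochondria. This choice sets the direction of what follows. Mitochondrially encoded mRNA took 25.7% of the counts of crude libraries and 4.0%, 1.76% and 1.74% of those of the bead-captured, proteinase K and mitoplast groups. These mRNAs were only part of the mitochondrially encoded counts. Nuclear genes held on average 3436100 of 6823650 counts in crude and 3370770 of 3613520 in bead-captured libraries. Scaled to the total count instead, the median of all genes moved up by 1.03, 94.8% of genes were higher and 0.714% lower in bead-captured mitochondria, and 22 members were higher with 0 lower. Scaled to mitochondrial mRNA, 34 members were higher in each of the 3 comparisons with crude mitochondria (99.8%, 99.9% and 99.9% of all genes). Scaled to olfactory receptor genes, 27, 21 and 19 members were lower in bead-captured, proteinase K-treated and mitoplast groups (16.9%, 7.49% and 6.61% of all).

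Relative to the typical gene, nuclear complex I transcripts were lower in bead-captured than in crude mitochondria. Of the 34 genes tested, 16 fell, 0 rose and 18 did not pass the test at an adjusted p of 0.05 with edgeR, while 5.09% of all genes tested fell and 1.26% rose. The members' median log2 fold change was -0.46 and their range -1.37 to 0.37, with 31 negative and 3 positive. In 22 of the 34 every bead-captured library was below every crude library, against 10.8% of all genes tested. The drop was uneven, from a 2.58-fold lower level of Ndufa6 to 1.00-fold for Ndufs8. DESeq2 called 11 of them lower (3.8% of all genes). Of the 16, 9 passed in all 16 alternatives that kept the scaling on the bulk of genes, namely Ndufa6, Ndufa9, Ndufa13, Ndufb2, Ndufb7, Ndufb8, Ndufs1, Ndufv1 and Ndufv2.

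**Figure D1:**
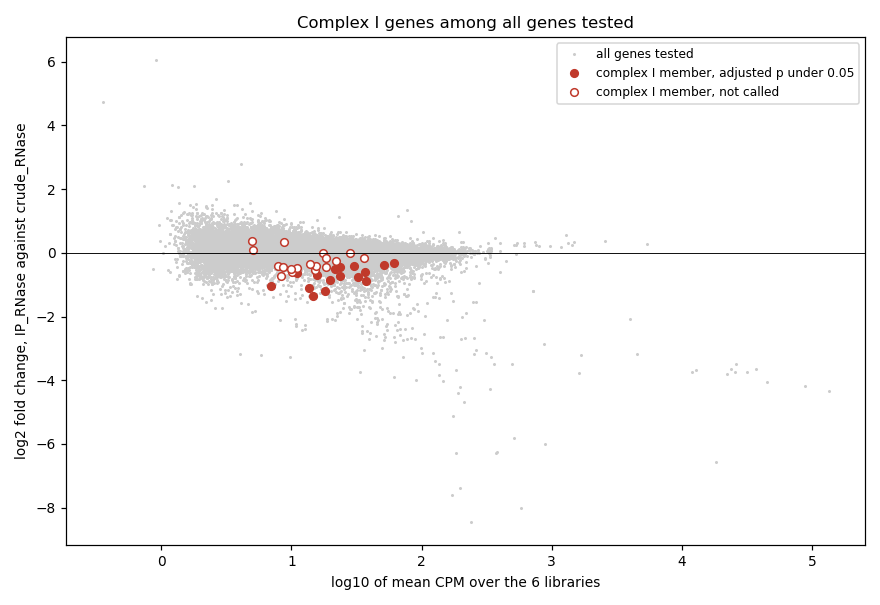
Log2 fold change in bead-captured against crude mitochondria, plotted against the log10 of the mean CPM over the 6 libraries, for all tested genes (grey) and the complex I genes (red, filled where the adjusted p was under 0.05). The members' median lies at -0.46, below that of all genes at 0.01, on TMM scaling (0.57 and 1.03 under the total count).

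**Figure D2:**
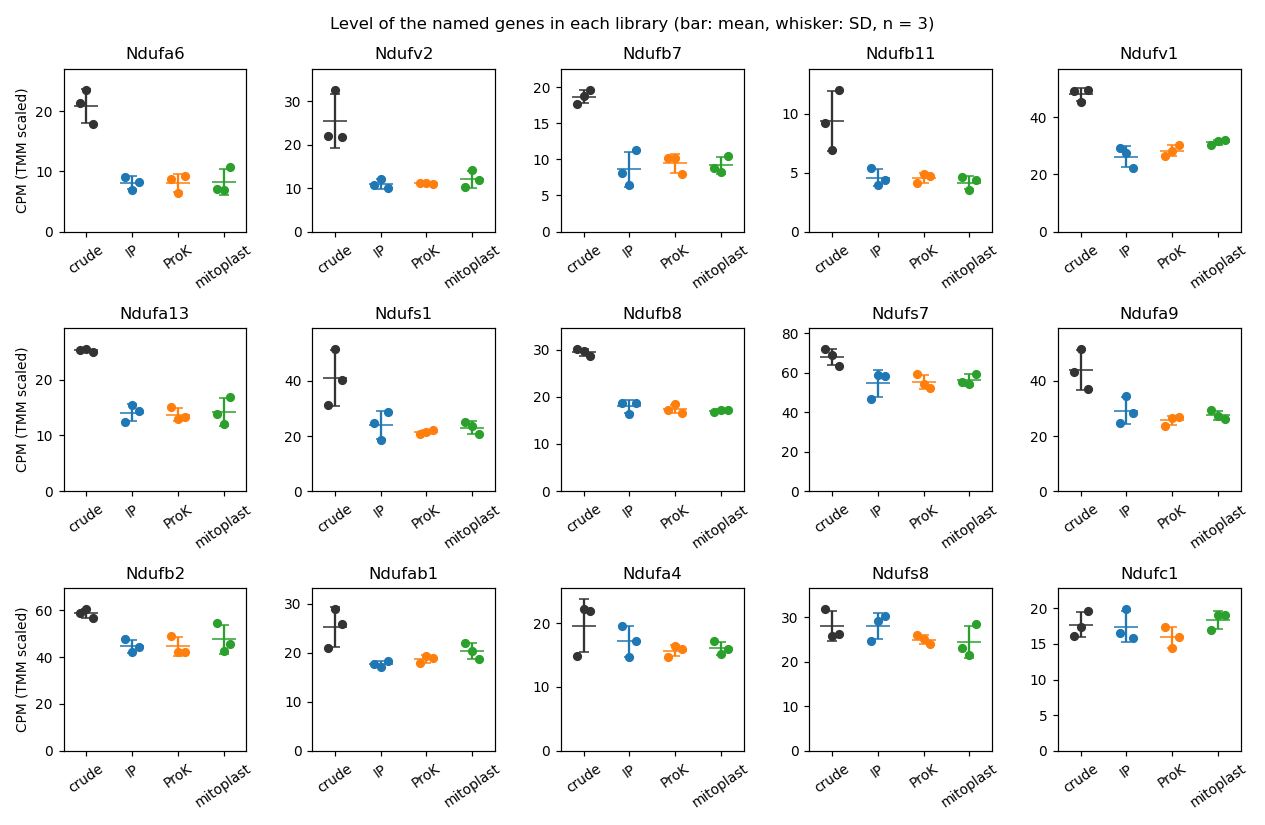
TMM-scaled CPM (linear axis from 0) of each gene given by library, in crude, bead-captured (IP), proteinase K-treated (ProK) and mitoplast groups; points are libraries, the horizontal bar is the mean and the whisker the SD (n = 3). For Ndufa6, Ndufv1, Ndufv2 and Ndufs1 the 3 crude points lie above all 9 others, while for Ndufs8, Ndufc1 and Ndufa4 the groups overlap, on TMM scaling; under the total count no gene passes the test as lower.

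The NADH-oxidising N core fell in full relative to the typical gene, with all 3 of its members lower in each comparison with crude mitochondria, and none of them passed as lower when scaled to the total count. Ndufv1 carries the flavin that takes electrons from NADH. Its level was 49.1, 45.5 and 49.6 CPM in the crude libraries, 29.1, 27.4 and 22.2 in bead-captured, 26.5, 28.2 and 30.3 in proteinase K-treated and 30.3, 31.6 and 32 in mitoplast libraries. No crude library overlapped any of the other 9. The log2 fold change against crude was -0.88 ± 0.111 (SE, adjusted p 1.5e-08 with edgeR) in bead-captured mitochondria.

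Ndufv2, the partner of Ndufv1 with its own iron-sulfur cluster, stood at 22, 32.7 and 21.9 CPM in crude libraries, at 10.7, 12.2 and 10.1 in bead-captured, at 11.3, 11.1 and 10.9 in proteinase K-treated and at 10.2, 14.1 and 11.8 in mitoplast libraries. Crude library 2 was the highest, and even the lowest crude library was above all 9 others. The log2 fold change was -1.21 ± 0.171 (adjusted p 2.54e-07 with edgeR). Ndufs1, the largest subunit, which carries several iron-sulfur clusters, was at 31.4, 51.4 and 40.4 CPM in crude libraries, 24.7, 18.7 and 28.9 in bead-captured, 20.7, 21.3 and 22.2 in proteinase K-treated and 25.1, 23.6 and 20.6 in mitoplast libraries. Its crude libraries were spread more widely than the others but did not overlap them, and its log2 fold change was -0.75 ± 0.139 (adjusted p 7.29e-05 with edgeR).

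In the Q core, which hands electrons to ubiquinone, 1 of 3 genes fell in bead-captured mitochondria. Ndufs7, the subunit with the last iron-sulfur cluster of the chain, was at 71.8, 68.8 and 63.6 CPM in crude libraries, 46.9, 59 and 58.4 in bead-captured, 59.4, 54.2 and 52.3 in proteinase K-treated and 55.2, 54 and 59.6 in mitoplast libraries. The groups were separate by a small margin, and the log2 fold change was -0.32 ± 0.0931 (adjusted p 0.0242 with edgeR). That call was lost without bead-captured library 1 (adjusted p 0.271), without crude library 1 (0.0833), with DESeq2 (0.0822) and in an edgeR fit of the 2 groups alone (0.0669).

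Ndufs8, which carries a pair of iron-sulfur clusters, was at 31.8, 25.7 and 26.3 CPM in crude libraries, 24.7, 29.1 and 30.2 in bead-captured, 25.9, 25.1 and 23.9 in proteinase K-treated and 23.2, 21.6 and 28.5 in mitoplast libraries. The groups overlapped, and the log2 fold change was -0.01 ± 0.128 (adjusted p 0.987 with edgeR). Ndufs3, which seeds assembly of the Q module, was at -0.43 ± 0.173 in bead-captured mitochondria (adjusted p 0.147 with edgeR).

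Among the 9 accessory genes of the matrix arm 5 fell in bead-captured mitochondria, namely Ndufa6, Ndufa9, Ndufa12, Ndufa5 and Ndufv3. Ndufa6, a LYR-motif protein that binds the acyl carrier protein, was at 21.3, 23.6 and 17.9 CPM in crude libraries, 9.09, 6.97 and 8.24 in bead-captured, 8.76, 6.44 and 9.19 in proteinase K-treated and 7.1, 6.88 and 10.7 in mitoplast libraries. All 9 libraries of the latter groups were below the lowest crude library. Its log2 fold change was -1.37 ± 0.192 (adjusted p 2.29e-07 with edgeR), the lowest of the 34.

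Ndufa9, which helps to hold the matrix and membrane arms together, was at 43.1, 51.4 and 37 CPM in crude libraries, 24.7, 34.6 and 28.4 in bead-captured, 23.8, 26.4 and 26.9 in proteinase K-treated and 29.3, 27.1 and 26.1 in mitoplast libraries. The lowest crude library was above the highest bead-captured one, and the log2 fold change was -0.59 ± 0.12 (adjusted p 0.000374 with edgeR). The calls of Ndufa12 (-0.64), Ndufa5 (-0.44) and Ndufv3 (-0.43) were each lost with DESeq2 and without some of the single libraries. Ndufa12 and Ndufa5 were also lost in the fit of 2 groups. Both were lost without bead-captured library 1 or 2 or crude library 3, Ndufa12 also without crude library 2, and Ndufv3 without library 2 of either group. Ndufa2, Ndufa7, Ndufs4 and Ndufs6 did not pass the test, with Ndufs6, a zinc-binding subunit of low count, at 0.10 ± 0.31.

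Of the 7 proximal membrane arm genes tested 1 fell. Ndufa13, also known as GRIM-19, was at 25.3, 25.4 and 24.9 CPM in crude libraries, 12.4, 15.4 and 14.4 in bead-captured, 15, 12.9 and 13.2 in proteinase K-treated and 13.8, 12 and 16.9 in mitoplast libraries. The crude libraries were nearly equal and lay well above the rest, with a log2 fold change of -0.84 ± 0.152 (adjusted p 4.54e-05 with edgeR). Ndufc1, a small membrane subunit, was at 16.1, 17.4 and 19.6 CPM in crude libraries, 16.6, 19.9 and 15.8 in bead-captured, 17.3, 14.4 and 16 in proteinase K-treated and 16.9, 19.1 and 19.1 in mitoplast libraries. Its groups overlapped, and the log2 fold change was -0.02 ± 0.154 (adjusted p 0.965 with edgeR).

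Ndufa3, a single-span subunit of the same region, leaned the other way, at 0.35 ± 0.229 (adjusted p 0.456 with edgeR), and Ndufc2 was at -0.72 ± 0.237 (adjusted p 0.0555). Ndufa1, a small subunit needed for membrane arm assembly, had too few reads to test, with raw counts of 6, 8 and 4 in crude, 8, 2 and 6 in bead-captured, 11, 7 and 8 in proteinase K-treated and 4, 11 and 8 in mitoplast libraries. The second Ndufs5 row held 8, 2 and 2 counts in crude libraries and 1 count in the other 9 together. Reads of near-identical copies may be divided among the paired rows of Ndufs5 and Ndufb2, and Ndufv3 has a named pseudogene in the table, so the values of these 3 genes are uncertain.

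In the distal membrane arm 5 of the 10 rows tested fell in bead-captured mitochondria, namely Ndufb7, Ndufb11, Ndufb8, Ndufb10 and 1 Ndufb2 row. Ndufb7, a subunit of the intermembrane space side, was at 17.7, 18.7 and 19.6 CPM in crude libraries, 8.16, 6.47 and 11.2 in bead-captured, 10.2, 10.2 and 7.91 in proteinase K-treated and 8.78, 8.25 and 10.5 in mitoplast libraries. The groups did not overlap, and the log2 fold change was -1.10 ± 0.19 (adjusted p 2.0e-05 with edgeR). Ndufb8, often used as a protein marker of assembled complex I, was at 30.1, 29.7 and 28.6 CPM in crude libraries, 18.7, 16.4 and 18.8 in bead-captured, 17.2, 18.4 and 16.7 in proteinase K-treated and 16.7, 17.3 and 17.3 in mitoplast libraries. The spread within each of its groups was far smaller than the gap to crude, and the log2 fold change was -0.71 ± 0.132 (adjusted p 7.68e-05 with edgeR).

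Ndufb11, an X-linked membrane subunit, was at 9.2, 6.96 and 12.1 CPM in crude libraries, 5.36, 3.98 and 4.35 in bead-captured, 4.11, 4.88 and 4.7 in proteinase K-treated and 4.6, 3.54 and 4.38 in mitoplast libraries. The crude libraries varied most but stayed above the others, with a log2 fold change of -1.03 ± 0.26 (adjusted p 0.00609 with edgeR). Without crude library 3 the log2 fold change was -0.83 and the edgeR call was lost (adjusted p 0.0771). The better-covered Ndufb2 row (ENSRNOG00000010005) was at 59, 60.5 and 56.6 CPM in crude libraries, 47.6, 42.1 and 44.4 in bead-captured, 49.2, 42.2 and 42.3 in proteinase K-treated and 54.3, 42.6 and 45.6 in mitoplast libraries. All crude libraries were above the rest, by less in mitoplasts, and the log2 fold change was -0.39 ± 0.0972 (adjusted p 0.00485 with edgeR). The other Ndufb2 row (ENSRNOG00000026616) was at 0.37 and did not pass the test. Ndufb10 fell by 0.70, and its call was lost without library 1 of either group.

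Ndufab1, the mitochondrial acyl carrier protein, is a subunit of both arms and also serves fatty acid synthesis. It was at 20.9, 28.9 and 25.8 CPM in crude libraries, 17.7, 17.2 and 18.3 in bead-captured, 17.9, 19.3 and 19 in proteinase K-treated and 21.9, 20.4 and 18.6 in mitoplast libraries. Crude and bead-captured libraries did not overlap, with a log2 fold change of -0.49 ± 0.142 (adjusted p 0.0217 with edgeR), and mitoplasts overlapped crude. The call was lost without bead-captured library 1 or 2, without crude library 2 or 3, with DESeq2 and in the fit of 2 groups, with edgeR adjusted p of up to 0.135. Ndufa4 was first described as a complex I subunit and is now regarded as a partner of cytochrome c oxidase. It was at 14.8, 22.2 and 21.9 CPM in crude libraries, 19.6, 14.7 and 17.2 in bead-captured, 14.7, 16.4 and 16 in proteinase K-treated and 17.1, 15.1 and 16 in mitoplast libraries. Its groups overlapped, and its log2 fold change was -0.17 (adjusted p 0.633 with edgeR).

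**Figure D3:**
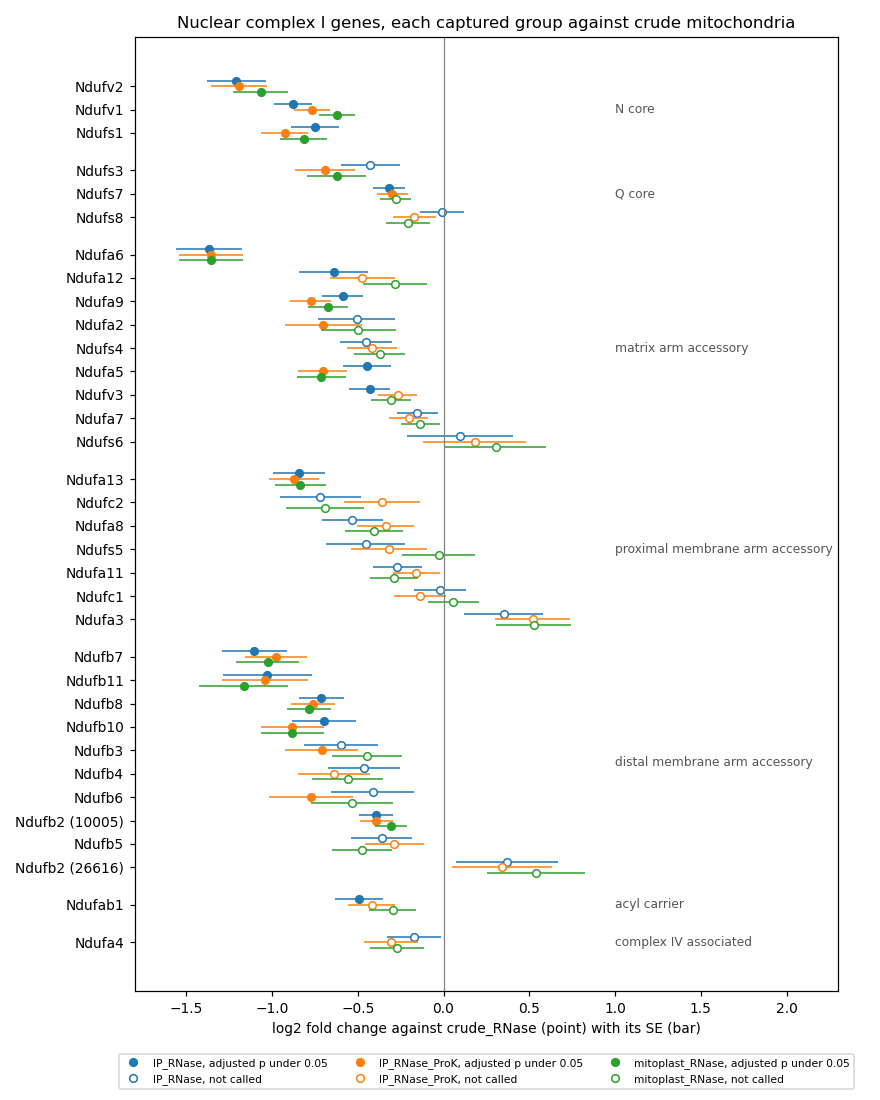
Log2 fold change of each tested gene (point) with its SE (bar) in bead-captured, proteinase K-treated and mitoplast groups against crude mitochondria, ordered by role, on TMM scaling (under the total count 0 are lower); filled points passed an adjusted p of 0.05. Most points lie left of 0, with Ndufa6 farthest left and Ndufa3, Ndufs6 and 1 Ndufb2 row to the right.

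The proteinase K and mitoplast groups were compared with the same 3 crude libraries, so the 3 comparisons are not independent and are given side by side. In proteinase K-treated mitochondria 17 of 34 genes fell and 0 rose (5.04% and 1.45% of all genes tested), with a median of -0.45 and a range of -1.36 to 0.52. Libraries were separate and lower for 23 genes (11.3% of all). In mitoplasts 13 fell and 0 rose (4.54% and 0.997% of all), with a median of -0.46 and a range of -1.36 to 0.54. Libraries were separate and lower for 19 genes (10.7% of all). DESeq2 called 13 and 11 members lower (3.66% and 3.45% of all). Scaled to the total count, 0 members were lower (0.699% and 0.676% of all) and 24 and 25 were higher (95.3% in both) in these 2 comparisons.

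By role, the counts of fallen genes in bead-captured, proteinase K and mitoplast groups were 3, 3 and 3 of 3 for the N core and 1, 2 and 1 of 3 for the Q core. They were 5, 4 and 3 of 9 for matrix arm accessory genes, 1, 1 and 1 of 7 for the proximal and 5, 7 and 5 of 10 for the distal membrane arm. In bead-captured mitochondria the median log2 fold changes were -0.88 for the N core and -0.32 for the Q core. For matrix arm, proximal and distal accessory genes they were -0.45, -0.45 and -0.53, closer together than the counts. Passing the test also depends on the counts of a gene, and whether the roles differ was not tested. Of all genes tested 5.09%, 5.04% and 4.54% fell, and under the total count 0 members of any role were lower. Ndufa6 was at -1.36 in both later groups, Ndufv2 at -1.19 and -1.07, Ndufb7 at -0.98 and -1.02, Ndufb11 at -1.04 and -1.17 and Ndufa13 at -0.87 and -0.83. For Ndufs1 the values were -0.93 and -0.82, for Ndufb8 -0.76 and -0.78, for Ndufv1 -0.77 and -0.62 and for Ndufa9 -0.78 and -0.67. All of these passed the test, although the call of Ndufb11 in proteinase K-treated mitochondria was lost without crude library 3 (adjusted p 0.0643 with edgeR).

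Ndufs3 fell in proteinase K-treated mitochondria (-0.69) and in mitoplasts (-0.62), and both calls were lost without crude library 2, that in mitoplasts also without mitoplast library 2 or 3 and with DESeq2. Ndufb3 (-0.71), Ndufb6 (-0.77) and Ndufa2 (-0.70) fell in proteinase K-treated mitochondria, each call being lost with DESeq2, in the fit of 2 groups and without several of the single libraries. Ndufs7 passed in proteinase K-treated mitochondria (-0.30, adjusted p 0.0321 with edgeR) and missed in mitoplasts (-0.28, 0.058). The first call was lost with DESeq2, in the fit of 2 groups and without library 1 or 2 of crude or 2 or 3 of proteinase K-treated mitochondria, and in mitoplasts Ndufs7 passed without bead-captured library 1 (0.0399 with edgeR) or crude library 3 (0.0457). The Ndufb2 row passed in both (-0.39 and -0.31), but in mitoplasts its call was lost with DESeq2, in the fit of 2 groups, without mitoplast library 2 or 3, and without any 1 of the 3 crude libraries. Ndufab1 was at -0.42 and -0.30 and passed in neither, and Ndufa4 was at -0.31 and -0.27 and passed in neither. Without crude library 1 both passed in proteinase K-treated mitochondria, Ndufab1 at -0.55 and Ndufa4 at -0.49 (adjusted p 0.00691 and 0.0408 with edgeR).

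Among the 3 groups made by bead capture no complex I gene passed the test. Proteinase K changed 0 of 34 genes relative to bead capture alone by edgeR (0.14% of all genes tested), with 0 at an unadjusted p under 0.05 (8.86% of all) and 0 by DESeq2. The median was -0.01, the range -0.36 to 0.36, and the 95% interval of each gene lay between -0.87 and 0.84. Mitoplasts against bead-captured mitochondria gave 0 of 34 by edgeR (0.155% of all), 1 at an unadjusted p under 0.05 (8.93% of all) and 0 by DESeq2, with a median of 0.02, a range of -0.27 to 0.43 and intervals between -0.72 and 0.88. That 1 gene was Ndufv1, higher in mitoplasts by 0.26 ± 0.115 (edgeR p 0.0308, adjusted p 0.511), and named after its value was seen. Mitoplasts against proteinase K-treated mitochondria gave 0 of 34 by edgeR (0% of all), 0 unadjusted (2.8% of all) and 0 by DESeq2, with intervals between -0.79 and 0.75. All of these intervals lay within 1 log2 unit of 0. DESeq2 gave no adjusted p for 33 of the genes in the first and in the second of these comparisons.

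A few genes were separate between bead-captured groups without passing the test. Ndufv3 was higher (8.36% of all genes were so) and Ndufb6 lower (8.27%) in every proteinase K library than in every bead-captured one. Ndufv1 and Ndufab1 were higher (7.9%) and Ndufa5 lower (8.05%) in every mitoplast library than in every bead-captured one.

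Summed over members, the direction depended on the denominator. The members took 0.0457% ± 0.00585 (SD, n = 3) of all gene counts in crude libraries, 0.0662% ± 0.00172 in bead-captured, 0.0678% ± 0.00236 in proteinase K-treated and 0.0697% ± 0.00118 in mitoplast libraries. Of nuclear gene counts alone they took 0.0906% ± 0.00241 in crude and 0.0708% ± 0.00143, 0.0697% ± 0.0021 and 0.0721% ± 0.00154 in the others. So the share was lowest in crude libraries out of all counts and highest there out of nuclear counts. In TMM-scaled CPM the sums were 792 ± 31.7 in crude and 564 ± 10.1, 555 ± 16.8 and 575 ± 12.2 in the others, and the lowest crude library, at 769, was above the highest other, at 588.

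The 7 mitochondrially encoded ND mRNAs, which code for the membrane core of the same complex, fell in all 3 comparisons with crude mitochondria, with medians of -3.63, -4.87 and -4.86, and of -2.59, -3.76 and -3.75 when scaled to the total count. For each count of a nuclear member there were 279 ± 61.5 ND counts in crude libraries (SD, n = 3), 32.5 ± 12.8 in bead-captured, 14.1 ± 2.36 in proteinase K-treated and 13.5 ± 1.5 in mitoplast libraries. This ratio does not depend on the scaling between libraries. Its 3 crude values, from 211 to 329, lay above all others, and the bead-captured values, from 20.5 to 46.0, lay above those of the proteinase K-treated and mitoplast libraries.

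**Figure D4:**
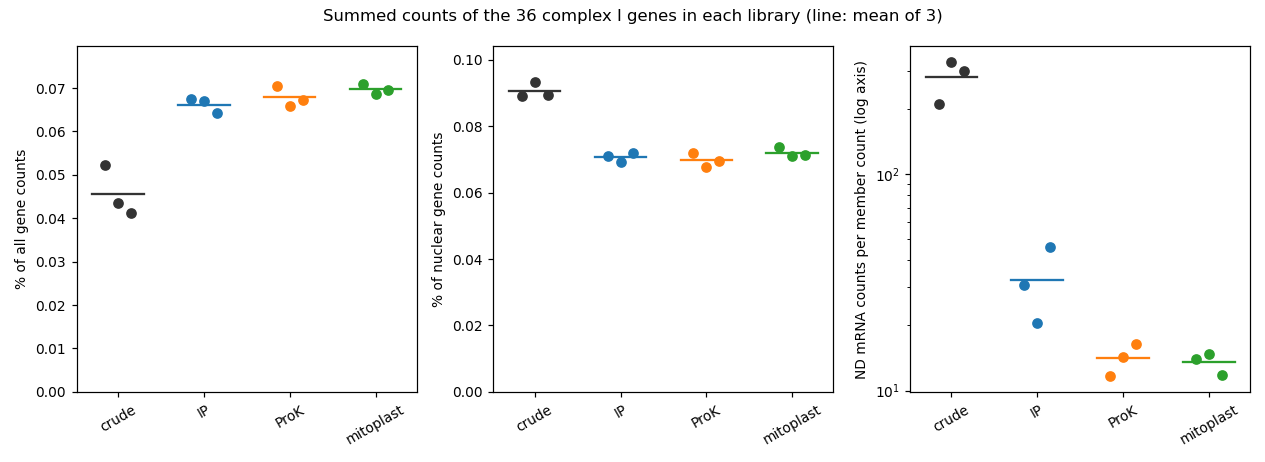
Summed complex I counts in each library as a share of all gene counts, as a share of nuclear gene counts, and as ND mRNA counts per member count (log axis), by group, with points for libraries and bars for group means. The crude libraries are lowest in the first panel and highest in the other panels.

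Other genes of the respiratory chain and of its assembly were counted in the same comparisons. Of 39 tested subunits of complexes II to V, 29, 30 and 30 fell in bead-captured, proteinase K and mitoplast groups, with medians of -0.96, -0.97 and -0.95. Scaled to the total count, 8, 9 and 8 of them were lower and 15, 15 and 14 higher, with medians of 0.07, 0.12 and 0.12, and scaled to mitochondrial mRNA all 39 were higher. The 3 with the smallest p in bead-captured mitochondria were Atp5f1b (-2.71) and Atp5f1a (-1.90), the catalytic beta and alpha subunits of ATP synthase, and Cox4i1 (-1.70), a subunit of cytochrome c oxidase. Of 19 complex I assembly factors, which build the enzyme and then leave it, 1, 0 and 0 fell and 0 rose, with medians of 0.07, 0.02 and -0.01, and 5.09%, 5.04% and 4.54% of all genes tested fell in these comparisons, so the count is near that of all genes. The 3 with the smallest p in bead-captured mitochondria were Ecsit, at -0.45 ± 0.123 (adjusted p 0.0128 with edgeR), Dmac2 at -0.38 (0.0745) and Tmem126a at 0.32 (0.387). All 19 were higher in each comparison when scaled to the total count or to mitochondrial mRNA. So were 94.8%, 95.3% and 95.3% of all genes tested under the total count. Under mitochondrial mRNA scaling the share of all genes was 99.8%, 99.9% and 99.9%. Whether complex I subunits differ from these lists was not tested.

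On TMM scaling, transcripts of the muscle fibre were lower than in crude mitochondria, as the complex I genes were. Under the total count the directions differed, with 0 complex I members lower and 22, 24 and 25 higher. All 19 of 19 tested sarcomere and muscle fibre markers fell in each comparison with crude mitochondria, with medians of -2.87, -3.05 and -2.79. Scaled to the total count 16 of 19 fell and 1 rose in each, with medians of -1.83, -1.96 and -1.70, and scaled to mitochondrial mRNA the medians were 0.94, 1.92 and 2.17. Their summed level was 10516 to 25432 CPM in crude libraries, 2768 to 3887 in bead-captured, 2689 to 2929 in proteinase K-treated and 2946 to 4528 in mitoplast libraries. Fibroblast and matrix markers fell in 7, 8 and 8 of 10 cases, with sums of 2094 to 2267 CPM in crude and 633 to 683 in the other libraries, and 5 lower with 5 higher in each when scaled to the total count. Of endothelial markers 1, 1 and 1 of 9 fell, of macrophage and leukocyte markers 3, 3 and 4 of 10, of erythroid markers 1, 1 and 1 of 5, and of adipocyte markers 3, 2 and 2 of 8, with 1 adipocyte marker higher in proteinase K-treated mitochondria. Of Schwann cell markers 0, 1 and 1 of 8 fell, of satellite cell markers 1, 1 and 0 of 6, and of smooth muscle markers 0 of 8 in each. Of all genes tested 5.09%, 5.04% and 4.54% fell. Under the total count none of the markers of the latter 7 lists passed as lower. In each comparison 8 of 9 endothelial and 9 or 10 of 10 macrophage and leukocyte markers were higher. So were all erythroid, adipocyte, Schwann cell, satellite cell and smooth muscle markers. Under that scaling 94.8%, 95.3% and 95.3% of all genes tested were higher, so these counts are near that of all genes. The share of all genes that was lower was 0.714%, 0.699% and 0.676%. No marker was at 0 in any library. The part of these transcripts in the complex I result was not tested. All libraries came from aliquots of 1 homogenate, so the markers compare preparations and not the cell make-up of a tissue.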

How the data were processed

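RNA of 12 mitochondrial preparations was sequenced after ribosomal RNA depletion. The deposited table gives raw read counts, as whole numbers, for each Ensembl gene, per the file headers. Per the submitters' processing notes, FastQC 0.74, cutadapt 4.6, STAR 2.7.11a and HTSeq were used with mRatBN7.2; the annotation release, strand setting and handling of multiply mapped reads were not given in the sources used here. Groups follow the titles, because the source and tissue labels of the crude libraries name immunoprecipitation. There were 0 columns of other samples.

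Counts were tested with edgeR 4.0.16 (R 4.3.3), quasi-likelihood F test, TMM scaling, filterByExpr with a minimum count of 10, 1 model of 4 groups, and Benjamini-Hochberg adjustment over all 26483 genes tested of 30560 in each of 6 comparisons, threshold 0.05. The common biological coefficient of variation was 0.0644. TMM factors were 0.525 to 0.679 in crude mitochondria and 1.12 to 1.23 elsewhere. The test was checked on simulated counts. PCR copies are not independent molecules.

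The members and lists were chosen with earlier results of these data known. Genes given in every library were the 8 members that fell most in bead-captured against crude mitochondria with ranges that did not overlap, the highest member of each role by mean crude CPM, and the 2 nearest 0. From the lists of assembly factors and complexes II to V, the 3 smallest p were named. Other genes named with values were chosen after their values were seen. Levels per gene length were not used here, so levels are not compared between genes. Promoter sequences are from RefSeq GRCr8. Alternatives were DESeq2 1.42.0, no filter, 3 other scalings, a fit of 2 groups, the replicate block and leaving out each library.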

Additional observations from a re-analysis of the deposited data

How the results depend on the processing

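The direction of the complex I genes against crude mitochondria depended on what the libraries were scaled to. Scaled to the total count, the median of all genes moved up by 1.03, 1.09 and 1.08 in bead-captured, proteinase K and mitoplast groups. Then 0 members were lower in each (0.714%, 0.699% and 0.676% of all genes) and 22, 24 and 25 were higher (94.8%, 95.3% and 95.3%). The members' medians were 0.57, 0.64 and 0.61. Of the 34 members 30, 32 and 32 then had a positive fold change. Among the genes given by library, those that changed sign in bead-captured mitochondria were Ndufv1 (0.15), Ndufa13 (0.18), Ndufs1 (0.28), Ndufb8 (0.31), Ndufs7 (0.70), Ndufa9 (0.44), Ndufb2 (0.63), Ndufab1 (0.54), Ndufa4 (0.86), Ndufs8 (1.01) and Ndufc1 (1.01). In proteinase K-treated mitochondria they were Ndufb7 (0.11), Ndufb11 (0.041), Ndufv1 (0.32), Ndufa13 (0.21), Ndufs1 (0.17), Ndufb8 (0.32), Ndufs7 (0.78), Ndufa9 (0.31), Ndufb2 (0.69), Ndufab1 (0.67), Ndufa4 (0.79), Ndufs8 (0.91) and Ndufc1 (0.95). In mitoplasts they were Ndufv2 (0.012), Ndufb7 (0.050), Ndufv1 (0.45), Ndufa13 (0.24), Ndufs1 (0.27), Ndufb8 (0.29), Ndufs7 (0.79), Ndufa9 (0.40), Ndufb2 (0.77), Ndufab1 (0.78), Ndufa4 (0.81) and Ndufs8 (0.86). Scaled to mitochondrial mRNA, the median of all genes moved up by 3.81, 4.95 and 4.93. In each comparison 0 members were lower and 34 higher, beside 99.8%, 99.9% and 99.9% of all genes higher. The members' medians were 3.33, 4.50 and 4.47. Under that scaling 33 and 34 members were called in proteinase K-treated mitochondria and mitoplasts against bead-captured mitochondria, with medians of 1.14 and 1.16, beside 94.0% and 93.4% of all genes and all-gene medians of 1.13 and 1.12. Scaled to olfactory receptor genes, which muscle is not known to transcribe, the median of all genes moved by -0.21, -0.12 and -0.11. With that scaling 27, 21 and 19 members were lower (16.9%, 7.49% and 6.61% of all genes). The members' medians were -0.68, -0.57 and -0.58, and Ndufc1 in mitoplasts stood at -0.057. The medians of proteinase K-treated mitochondria and mitoplasts against bead-captured mitochondria were then 0.090 and 0.12, and 0.052 and 0.068 under the total count. Out of nuclear counts alone the members' share was 0.0906% in crude, 0.0708% in bead-captured and 0.0721% in mitoplast libraries.

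DESeq2 called 11, 13 and 11 members lower in the 3 comparisons with crude mitochondria (3.8%, 3.66% and 3.45% of all genes). Fits of 2 groups called 12, 13 and 12 (4.21%, 4.25% and 3.88% of all genes), and no filter 17, 17 and 14 (4.50%, 4.44% and 3.94%). Leaving out each library in turn gave 11 to 17, 13 to 18 and 11 to 14 (3.93% to 5.43%, 3.75% to 5.95% and 3.64% to 5.48% of all). The medians then ranged from -0.54 to -0.41 in proteinase K-treated mitochondria and -0.49 to -0.40 in mitoplasts against crude, from 0.0092 to 0.048 in mitoplasts against bead-captured and 0.025 to 0.11 in mitoplasts against proteinase K-treated mitochondria. Ndufs8 ranged from -0.0678 to 0.11 and Ndufc1 from -0.12 to 0.054 in bead-captured mitochondria, and Ndufc1 from -0.011 to 0.13 in mitoplasts. With the replicate number as a block 16, 16 and 13 members were lower (4.96%, 4.94% and 4.41% of all) and 0 were called in the other 3 comparisons (0.125%, 0.155% and 0% of all). The numbers were not found to pair the libraries: of 18 same-numbered pairs 0 had a correlation of deviations over 0.1 (range -0.102 to 0.0665). At 52 to 91.5 counts for the median member, small changes are limited by counting error.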
